A study of Mus musculus with 10 samples.

Results

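Cxcl9, Cxcl10 and Cxcl11 encode the chemokine ligands of the receptor encoded by Cxcr3, and these 4 genes are described here across 10 arrays of mouse bone marrow cultures. They were chosen by name: for each, the probe set that the platform annotation assigns to that symbol alone was taken. Each of the 4 genes had 1 such probe set, so 4 of 35556 probe sets, or 4 of 19938 named genes, are described. The cultures came from marrow of the long bones of male Swiss mice aged 4 to 6 weeks. All of them, controls included, grew in αMEM with fetal calf serum and 10 nM calcitriol, the active form of vitamin D, under which osteoclasts can form. Adiponectin cultures also received recombinant mouse adiponectin at 5 µg/ml, and control cultures are labelled as vehicle-treated in one field and as untreated in another. At each time 1 adiponectin and 1 control culture were sampled, at 4, 10, 24, 72 and 120 h, which gives 5 pairs. The series title names contamination with lipopolysaccharide, the endotoxin of bacteria, so the question for these genes is how strongly and when each ligand differed with the adiponectin preparation, and whether the receptor did. Whether separate animals supplied the cultures is not given, so the tests cover the spread between these cultures only, which may be technical.

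The 3 ligands are short secreted CXC chemokines that lack the ELR motif of the neutrophil-attracting members of the family. Interferon gamma, type I interferons and Toll-like receptor signals induce them in macrophages, dendritic cells, endothelium and stroma, through STAT and IRF factors and NF-kB. They attract activated T cells and NK cells that carry CXCR3, a receptor coupled to inhibitory G proteins. Cxcl10 is known as an early target of endotoxin in macrophages, whereas Cxcl9 is known above all as a target of interferon gamma.

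The 3 ligand genes lie next to each other on chromosome 5, and Cxcr3 lies on chromosome X. In RefSeq (assembly GRCm38.p6) Cxcl9 spans chr5:92321331-92328079, Cxcl10 chr5:92346638-92348889 and Cxcl11 chr5:92359544-92363296, within 42.0 kb in all, and Cxcr3 spans chrX:101731535-101734147. RefSeq lists Cxcl9, Cxcl10 and Cxcr3 as protein-coding and Cxcl11 as a transcribed pseudogene. That annotation is of the C57BL/6J strain, and the allele of Cxcl11 in these Swiss mice is not given, so the Cxcl11 values are of the transcript and not of a protein. Promoters of 3 of the 4 genes, Cxcl9, Cxcl10 and Cxcr3, matched in the RefSeq promoter table by symbol. Those of Cxcl9 and Cxcl10 are shown because these ligand genes rose together. The lines give the 250 bases before the start site, read 5′ to 3′ on the gene's strand (minus for both), from chr5:92328080-92328329 for Cxcl9 and chr5:92348890-92349139 for Cxcl10, with matches to the motifs named below in capitals.
Cxcl9: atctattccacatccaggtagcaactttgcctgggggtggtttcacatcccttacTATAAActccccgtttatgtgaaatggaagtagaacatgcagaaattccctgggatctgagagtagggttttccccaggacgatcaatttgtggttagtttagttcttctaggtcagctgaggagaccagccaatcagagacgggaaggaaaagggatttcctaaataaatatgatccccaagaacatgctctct
Cxcl10: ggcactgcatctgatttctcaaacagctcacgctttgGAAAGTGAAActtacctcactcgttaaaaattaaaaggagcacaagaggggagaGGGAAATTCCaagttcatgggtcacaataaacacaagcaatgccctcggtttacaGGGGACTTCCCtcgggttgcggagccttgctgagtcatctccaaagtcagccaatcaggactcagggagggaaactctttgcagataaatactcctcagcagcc

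Both strands were searched for the core of the interferon-stimulated response element (TTTCNNTTTC), the gamma-activated site (TTCNNNGAA), the kappaB consensus bound by NF-kB and the TATA box (TATAAA). The Cxcl10 window held 1 response element core, 213 to 204 bases before the start site. It also held 3 kappaB matches, at 159 to 150, 104 to 95 and 103 to 94 bases before the start, the last pair overlapping each other. The Cxcl9 window held 1 TATAAA match, 195 to 190 bases before the start, and no match to the other 3 motifs. The Cxcr3 window held no match to any of the 4. Over the same 250 bases of 27025 promoters, 3.04% held the response element core, 7.18% the gamma-activated site, 7.01% the kappaB consensus and 13.0% TATAAA. The response element core and the kappaB consensus stood together in 0.163% of them (44 promoters). A match describes letters only and is not shown to be bound in these cultures. The lack of a match to these exact strings does not show that a window holds no such element.

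Cxcl10 and Cxcl9 were far higher in adiponectin than in control cultures at all 5 times, and Cxcl11 was higher at 4 of them by much less. The receptor gene was close to control at all 5 times. All values are the deposited log2 values, on which a difference of 1 is a doubling, and levels are compared between cultures only, not between genes. With a Benjamini-Hochberg adjusted p under 0.05 as the threshold, limma with the time point as a block called 2.05% of all 19938 genes higher and 0.371% lower, and of the 4 genes described here 2 rose and 0 fell. A difference above 0 in all 5 pairs, as in Cxcl9 and Cxcl10, was shared by 6.32% of genes.

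Cxcl9, a ligand that draws effector T cells into inflamed tissue, read 10.13, 10.17, 12.16, 10.28 and 10.87 at 4, 10, 24, 72 and 120 h in adiponectin cultures, against 7.93, 7.64, 8.08, 8.17 and 7.84 in control cultures. The lowest adiponectin value lay 1.96 above the highest control value, so the groups did not overlap, and the 24 h adiponectin culture stood highest. All 5 adiponectin arrays lay above all 5 control arrays for 1.53% of genes. The differences were 2.20, 2.53, 4.08, 2.11 and 3.03, or 4.60-, 5.76-, 16.9-, 4.31- and 8.18-fold. At 24 h the difference ranked 1st of all 19938 genes, and at the other times it ranked between 15th and 22nd. The mean difference was 2.79 ± 0.81 (SD, n = 5 pairs; 95% interval 2.28 to 3.30), or 6.91-fold, with a limma adjusted p of 4.94e-05. The 95% intervals here and below come from limma's variance, moderated over all genes, and not from the printed SD. For Cxcl9 and Cxcl10 they are narrower than the spread of the 5 pairs alone would give. Control cultures covered a range of 0.54 in Cxcl9 over the 5 times, while adiponectin cultures covered 2.03. Every control value of Cxcl9 lay below the medians of the arrays (8.27 to 8.48), above 37.3% to 44.7% of genes. Values so low can understate a fold change.

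Cxcl10, the ligand also known as IP-10, read 13.97, 12.69, 13.16, 11.46 and 10.85 at 4, 10, 24, 72 and 120 h in adiponectin cultures, against 9.68, 9.83, 10.70, 9.73 and 8.49 in control cultures. Adiponectin exceeded control at every time, but the groups were apart by only 0.15, the gap between the adiponectin culture of 120 h and the control culture of 24 h. The differences were 4.29, 2.86, 2.46, 1.73 and 2.36, or 19.6-, 7.24-, 5.52-, 3.31- and 5.13-fold. The first of these was the largest rise of any gene at 4 h, and by 72 h the difference was 40.3% of it on the log2 scale and ranked 35th. The mean difference was 2.74 ± 0.96 (SD, n = 5 pairs; 95% interval 2.14 to 3.34), or 6.68-fold, with a limma adjusted p of 0.000180. That call was lost when the pairs were not blocked (adjusted p = 0.0687) and with an intensity trend and robust prior (adjusted p = 0.0556), with the same mean. In control cultures Cxcl10 covered a range of 2.21 over the 5 times, with the highest value at 24 h and the lowest at 120 h.

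Cxcl11, the ligand known for the highest affinity for CXCR3 in humans, read 7.64, 7.52, 7.72, 7.21 and 6.85 at 4, 10, 24, 72 and 120 h in adiponectin cultures, against 6.76, 6.94, 6.96, 6.84 and 6.99 in control cultures. The adiponectin cultures of 4 to 72 h lay above all control cultures, and that of 120 h lay among them. The differences were 0.89, 0.57, 0.76, 0.37 and -0.14, with the 4 h value at 1.85-fold. The mean difference of 0.49 ± 0.40 (SD, n = 5 pairs; 95% interval 0.21 to 0.78) did not pass over all genes (limma adjusted p = 0.0947). Without the 120 h pair it was 0.65 and passed (adjusted p = 0.00794), so this pair decided the call. Every Cxcl11 value lay below the medians of the arrays, which were 8.27 to 8.48, and signal over background is not given in the sources used here. A small difference in so dim a probe set can understate a change in the transcript.

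Cxcr3, the receptor of the 3 ligands, read 8.58, 8.64, 8.62, 8.98 and 8.88 at 4, 10, 24, 72 and 120 h in adiponectin cultures, against 8.76, 8.50, 8.95, 8.67 and 8.77 in control cultures. The groups overlapped throughout, and neither stayed above the other: adiponectin was higher at 10, 72 and 120 h and lower at 4 and 24 h. Its values lay close to the medians of the arrays, above 53.0% to 59.2% of genes. The differences ran from -0.33 at 24 h to 0.31 at 72 h. Their mean was 0.01 ± 0.26 (SD, n = 5 pairs; limma adjusted p = 0.989), with a 95% interval of -0.20 to 0.23, which is 0.868- to 1.17-fold. At 10 h the median of all named genes was 8.40 in the adiponectin culture and 8.27 in the control culture, a gap as wide as the Cxcr3 difference of 0.14 at that time, and with arrays centred on their medians the mean was -0.00675. In bulk cultures, fewer cells that carry a receptor and less of its RNA per cell cannot be told apart.

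**Figure D1:**
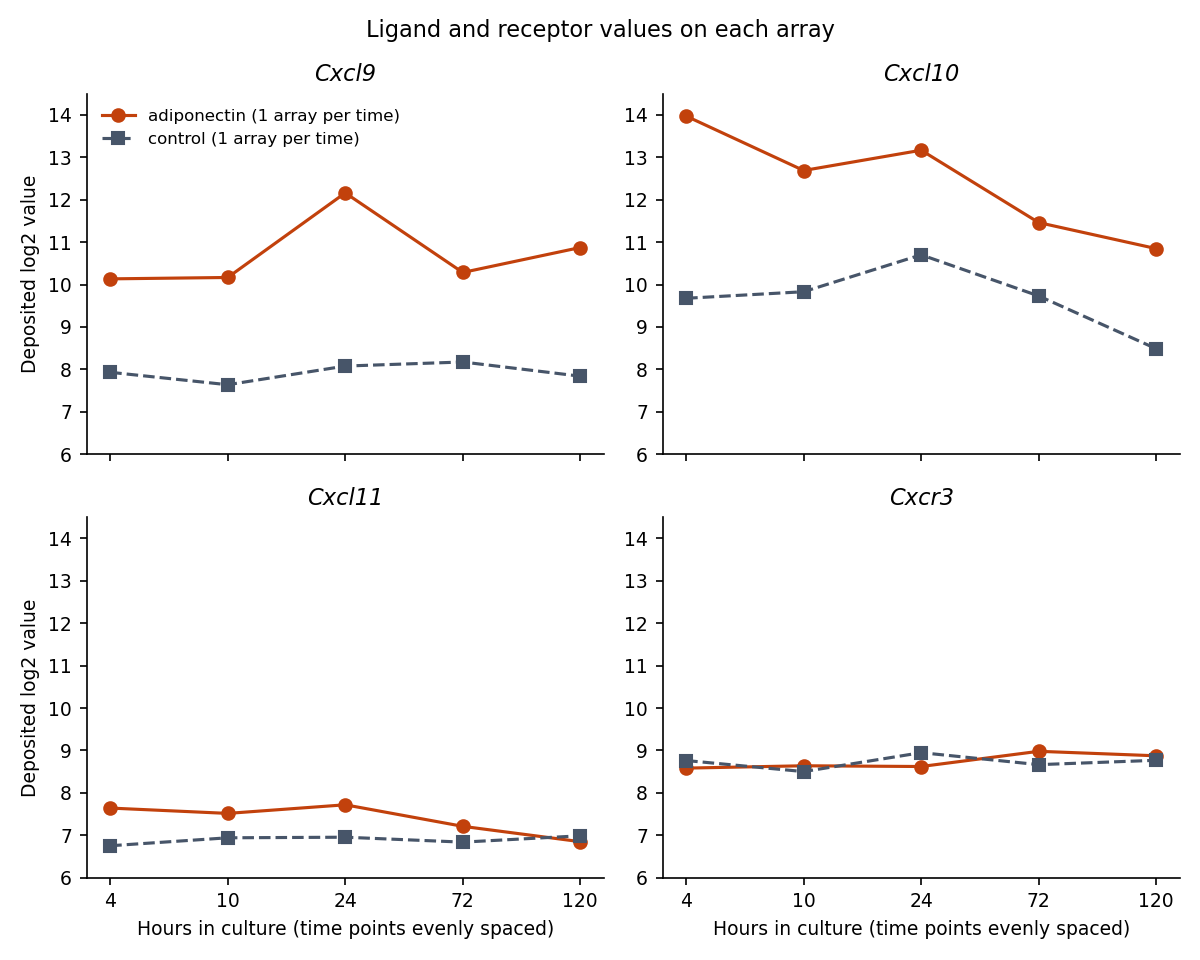
Deposited log2 values of the 3 ligand genes and the receptor gene (y axis, 1 panel per gene) at 5 times in culture (x axis, hours, evenly spaced), with circles for adiponectin and squares for control and 1 array per point. Cxcl9 and Cxcl10 are above control at every time, with the highest adiponectin values at 24 h (12.16) and 4 h (13.97), while the Cxcr3 lines cross.

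The largest difference did not fall at the same time for each ligand. The Cxcl9 difference was largest at 24 h, and those of Cxcl10 and Cxcl11 were largest at 4 h. From 4 to 24 h the mean differences were 2.94 ± 1.00 for Cxcl9, 3.20 ± 0.96 for Cxcl10 and 0.74 ± 0.16 for Cxcl11 (SD, n = 3 pairs), and over the pairs of 72 and 120 h they were 2.57, 2.04 and 0.12. Per doubling of the hours in culture, the adiponectin difference changed by -0.41 for Cxcl10 (95% interval -0.61 to -0.21; unadjusted p = 0.00118 and adjusted p = 0.436, both limma). It changed by -0.17 for Cxcl11 (-0.28 to -0.06; unadjusted p = 0.00686 and adjusted p = 0.499, both limma) and by 0.08 for Cxcl9 (-0.23 to 0.39; limma adjusted p = 0.826). For Cxcr3 it changed by 0.06 (-0.05 to 0.18; limma adjusted p = 0.644). None of these passed. Without the 4 h pair the Cxcl10 value was -0.21, and without the 120 h pair the Cxcl11 value was -0.10. In this limma test 0 of 19938 genes (0%) passed in either direction, while 620 rose and 1339 fell with time at an unadjusted p under 0.05. Each time has 1 culture per group, so the peak of a single gene at a single time has no replicate.

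Cxcl9 and Cxcl10 thus reached nearly equal mean differences by different courses, though the low control values of Cxcl9 can understate its differences. At 4 h the Cxcl9 difference was 2.09 smaller than that of Cxcl10, at 10 h 0.33 smaller, and at 24, 72 and 120 h 1.62, 0.38 and 0.67 larger. The mean of Cxcl9 minus Cxcl10 was 0.05 ± 1.39 (SD, n = 5 pairs; exact two-sided sign-flip permutation p = 0.9375), which does not show that they changed alike. The Cxcl9 difference exceeded that of Cxcl11 in 5 of 5 pairs, by 2.30 ± 0.89, which is a 4.92-fold larger fold change. The Cxcl10 difference exceeded that of Cxcl11 in 5 of 5 pairs, by 2.25 ± 0.79, which is 4.75-fold. The low values of Cxcl11 can also understate its differences, so these 2 ratios describe probe set values and may not hold for the transcripts. Each of the last 2 comparisons had an exact permutation p of 0.0625, the smallest that 5 pairs allow, and 0.0938 when adjusted over the 3 ligand pairs.

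**Figure D2:**
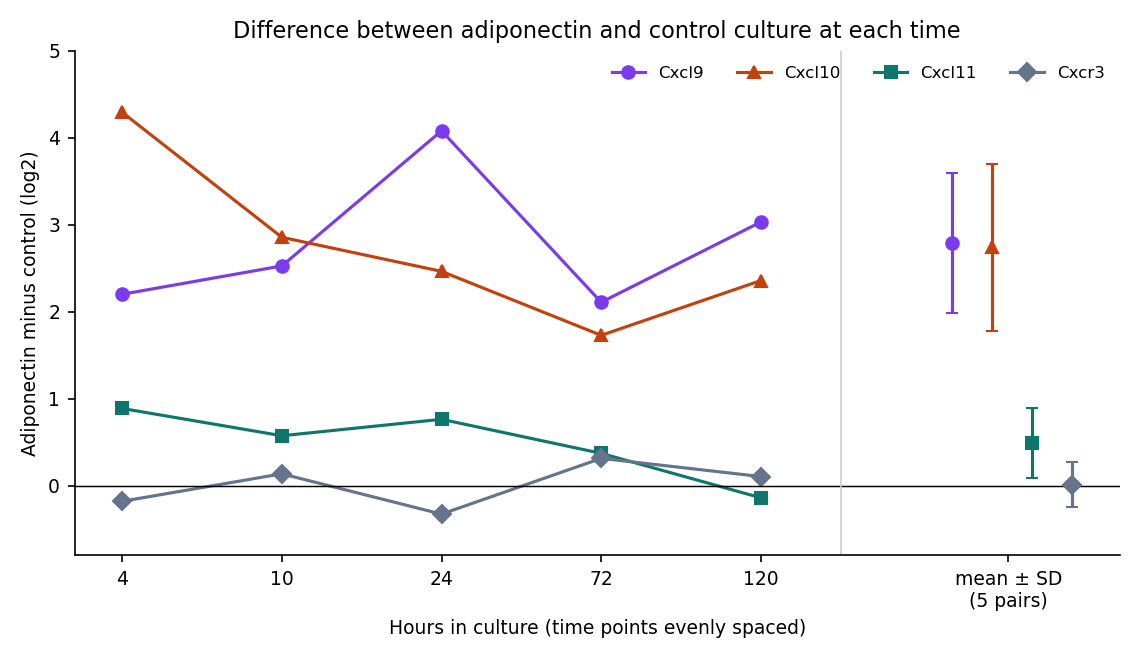
Difference between the adiponectin and the control culture of each time (y axis, log2) against hours in culture (x axis, evenly spaced), with the mean ± SD over the 5 pairs at the right. The Cxcl10 line starts at 4.29 and the Cxcl9 line peaks at 4.08 at 24 h, and Cxcl11 and Cxcr3 stay between -0.33 and 0.89.

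Cxcl10 also changed with time in culture. Over all 10 arrays, beside the treatment term, its level fell by 0.38 per doubling of the hours (limma adjusted p = 0.0244), in a comparison in which 9.81% of genes rose and 8.67% fell. The call rested on single pairs: it was lost without the 10 h pair (-0.41; adjusted p = 0.0517) and without the 120 h pair (-0.23; adjusted p = 0.415). It was also lost when the arrays of a time were averaged first (adjusted p = 0.0796). In adiponectin arrays alone the slope was -0.59 (limma adjusted p = 0.0211), and in control arrays alone it was -0.18 (0.481), a difference tested by the change with time given above, which did not pass. The slopes were 0.07 for Cxcl9, -0.06 for Cxcl11 and 0.04 for Cxcr3, with limma adjusted p of 0.669, 0.353 and 0.325.

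No gene around the ligand cluster passed the test, as was so for most genes: 2.05% of all genes rose and 0.371% fell. A count of 0 among so few neighbours is near that share. Of 9 protein-coding genes around it, the 4 nearest on each side and Art3, which overlaps Cxcl10 and Cxcl11 in the annotation, 0 rose and 0 fell in the limma test (0 at an unadjusted p under 0.05 and 0 with an intensity trend and robust prior), with a median difference of 0.02, against 0.01 over all genes. Their mean differences ran from -0.03 for Ppef2 to 0.11 for Scarb2, a receptor of lysosomal membranes. Art3, from the ADP-ribosyltransferase family, differed by -0.03 ± 0.19 (SD, n = 5 pairs; limma adjusted p = 0.962). Sdad1 and Nup54, the nearest genes outside the cluster on either side, differed by 0.10 ± 0.22 and 0.03 ± 0.11 (limma adjusted p = 0.832 and 0.959).

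**Figure D3:**
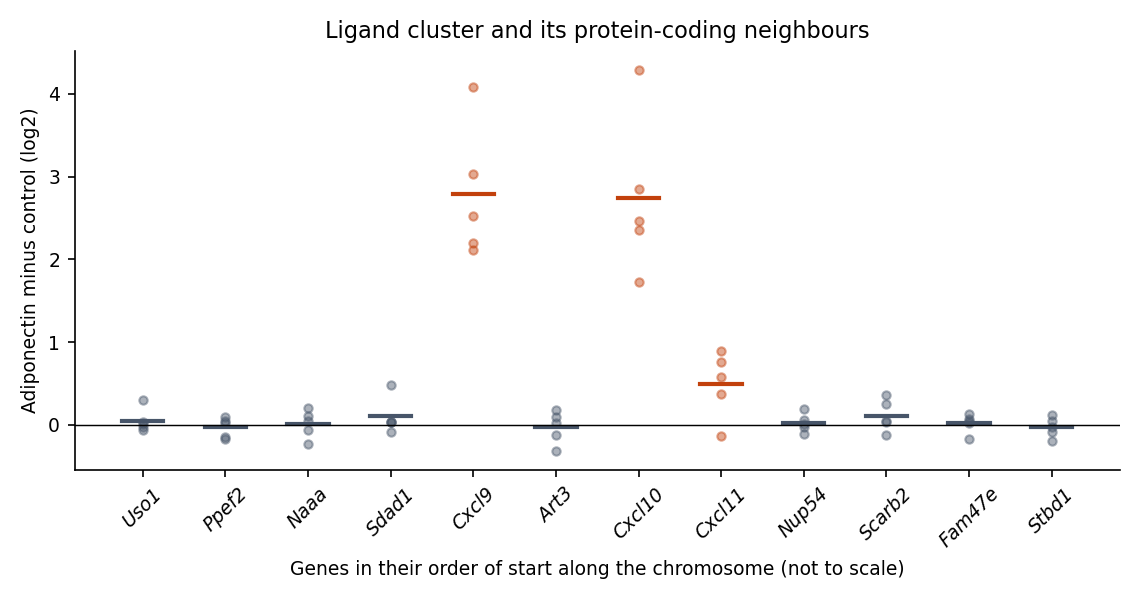
Adiponectin minus control (y axis, log2) for the 3 ligand genes and their 9 protein-coding neighbours in order of start along chromosome 5 (x axis, not to scale), with a point for each of the 5 pairs and a bar at the mean. The bars of Cxcl9 and Cxcl10 stand at 2.79 and 2.74 and that of Cxcl11 at 0.49, with the neighbours between -0.03 and 0.11.

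Upstream of the ligands, some transcription factors of the interferon response rose, and the genes of the interferons and their receptors did not pass. Of 26 measured genes for interferons, their receptors, kinases, transcription factors and brakes, 8 rose and 0 fell, with a median difference of 0.23. Among all genes 2.05% rose and 0.371% fell. Stat2 and Irf9, transcription factors of the type I interferon response, rose by 1.52 ± 0.21 and 0.72 ± 0.08 (limma adjusted p = 4.40e-06 and 0.000166). Irf7, which amplifies type I interferon, rose by 1.76 ± 0.44, and Irf1, a factor of the interferon gamma response, by 0.79 ± 0.26 (limma adjusted p = 3.15e-05 and 0.000968). Usp18 and Socs1, brakes on interferon receptor signalling, rose by 2.63 ± 0.25 and 0.78 ± 0.52 (limma adjusted p = 6.05e-07 and 0.0251). Ikbke, a kinase upstream of IRF3 and IRF7, rose by 0.71 ± 0.09, and Jak2, a kinase of the interferon gamma receptor, by 0.42 ± 0.15 (limma adjusted p = 0.000210 and 0.0165). Of these calls, 2 were lost with a time left out: Socs1 (without 4, 10 or 24 h, up to 0.147) and Jak2 (without 4 or 10 h, up to 0.0600), as limma adjusted p.

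Among the factors that did not pass, Irf3, Irf5 and Irf8 differed by -0.15 ± 0.16, 0.12 ± 0.07 and 0.22 ± 0.20 (limma adjusted p = 0.608, 0.693 and 0.389). Ifng, the gene of interferon gamma, was higher in 5 of 5 pairs by 0.23 ± 0.20 (limma adjusted p = 0.312) and did not pass, and Ifnb1, the gene of interferon beta, differed by 0.07 ± 0.22 (0.887). The receptor genes Ifngr1, Ifngr2, Ifnar1 and Ifnar2 differed by -0.24, 0.05, 0.02 and 0.04. Tlr4, the receptor of endotoxin, differed by 0.00 ± 0.34 (limma adjusted p = 0.999), and Rela, a subunit of NF-kB, by 0.02 ± 0.19 (0.977).

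**Figure D4:**
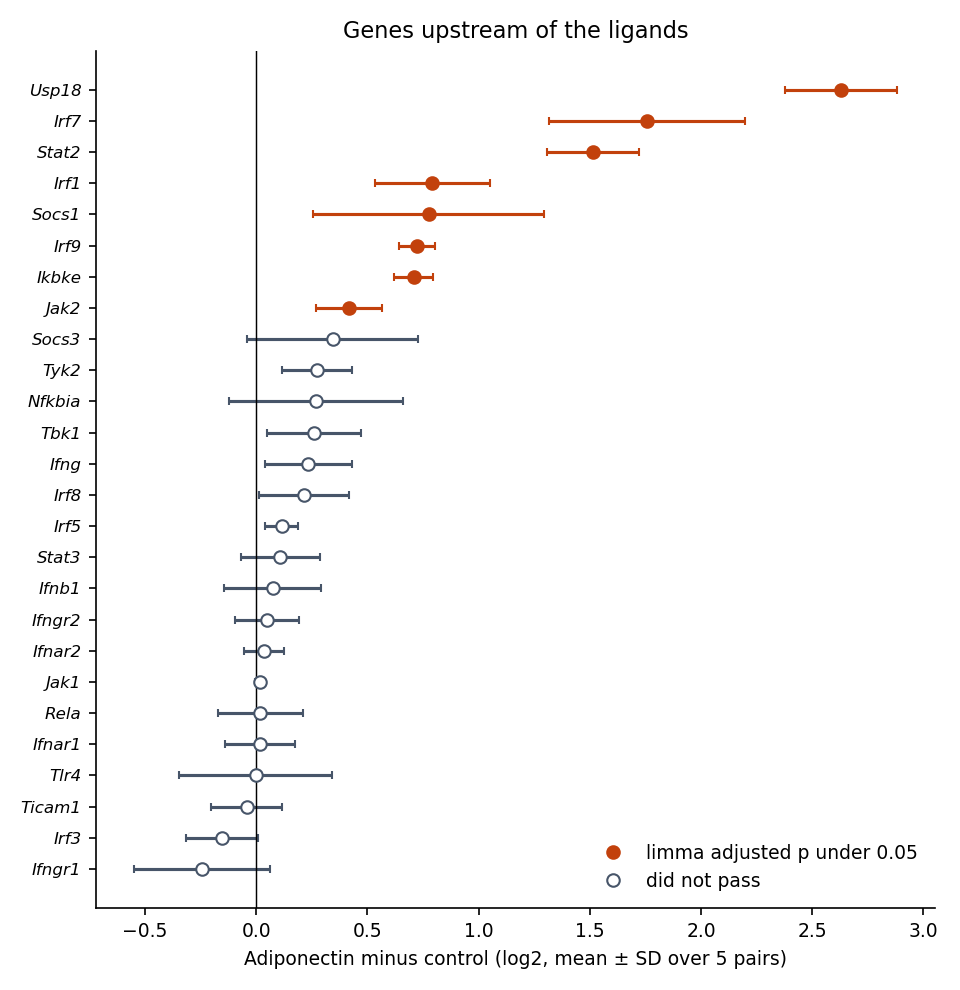
Mean difference between adiponectin and control cultures (x axis, log2, with SD over 5 pairs) for 26 genes upstream of the ligands (y axis), filled where the limma adjusted p was under 0.05. The 8 filled genes run from Jak2 at 0.42 to Usp18 at 2.63.

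No gene listed for CXCR3 signalling or for handling of the ligands passed. Over all genes 2.05% rose and 0.371% fell, so 0 among so few genes is near that share. Signalling through the receptor was not measured. Of 15 measured genes for G proteins, arrestins, scavenger receptors, the protease DPP4, heparan sulphate proteoglycans and platelet chemokines, 0 rose and 0 fell in the limma test (0 at an unadjusted p under 0.05 and 0 with an intensity trend and robust prior), with a median of -0.05. The largest mean differences were 0.32 ± 0.60 for the syndecan gene Sdc4 (limma adjusted p = 0.642) and 0.16 ± 0.25 for Dpp4, whose protease trims these ligands (0.685). Arrb1, a beta-arrestin gene, was at -0.15 ± 0.17 (0.605), and Gnaq, a G protein gene, at -0.13 ± 0.23 (0.770). Ackr3, the scavenger receptor that binds CXCL11, differed by 0.02 ± 0.24 (limma adjusted p = 0.977).

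Outside the CXCR3 ligands, 1 of 10 measured CXC chemokines rose and 0 fell, with a median of 0.27. Over all genes 2.05% rose and 0.371% fell. At an unadjusted limma p under 0.05, 5 of the 10 were higher and 2 lower. Over all genes, 5.91% met this as higher and 4.21% as lower. Cxcl2, a neutrophil attractant, rose by 0.90 ± 0.69 (limma adjusted p = 0.0450), a call lost without 4, 10 or 120 h (up to 0.157) and with an intensity trend and robust prior (0.198). Its differences were 1.92 at 4 h, 1.09 at 10 h, 0.07 at 24 h, 0.52 at 72 h and 0.87 at 120 h. The lowest of these fell at 24 h, the time at which the Cxcl9 difference was largest. Cxcl3 was at 0.68 ± 0.52, Cxcl13 at 0.60 ± 0.72 and Cxcl16, the ligand of CXCR6, at 0.46 ± 0.30 (limma adjusted p = 0.0546, 0.271 and 0.0529).

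Among 17 other chemokine receptors, 1 rose and 1 fell, with a median of 0.06, while 2.05% of all genes rose and 0.371% fell. At an unadjusted limma p under 0.05, 4 of the 17 were higher and 2 lower, against 5.91% and 4.21% of all genes. Cxcr6, a receptor of activated T and NK cells, rose by 0.52 ± 0.21 (limma adjusted p = 0.00943), and Ccr1, a receptor of myeloid cells, fell by 0.37 ± 0.16 (0.0405). The Ccr1 call was lost without 4, 24, 72 or 120 h (up to 0.148). Ccrl2 was at 0.63 ± 0.69 and Ccr7, which guides dendritic cells to lymph nodes, at 0.61 ± 0.61 (limma adjusted p = 0.207 and 0.151).

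Marker genes of the cells that usually carry CXCR3 were mostly dim and mostly did not pass. Of 9 T cell genes 0 rose and 0 fell in the limma test, with a median of 0.15, while 2.05% of all genes rose and 0.371% fell. At an unadjusted limma p under 0.05, 3 of the 9 were higher and 1 lower, against 5.91% and 4.21% of all genes. With an intensity trend and robust prior 1 passed. The largest difference was that of Cd3g, a subunit of the T cell receptor complex, at 0.45 ± 0.32 (limma adjusted p = 0.0713). Cd3d, a subunit of the same complex, was lower in 5 of 5 pairs, at -0.31 ± 0.25 (limma adjusted p = 0.186). The 9 T cell genes averaged 7.69 to 7.88 in adiponectin cultures and 7.50 to 7.71 in control cultures. Of 9 NK cell genes 1 rose, Klrk1, an activating receptor, by 1.88 ± 0.63 (limma adjusted p = 0.000178), and the median was 0.23, with a mean above 0 for each of the 9. At an unadjusted p under 0.05, 5 of them were higher and 0 lower. The differences of Gzmb, a cytotoxic granule protease, were 0.26, 0.00, 1.55, 2.82 and 2.89 at 4, 10, 24, 72 and 120 h, and their mean of 1.51 ± 1.36 did not pass (limma adjusted p = 0.0804). Il2rb, a receptor subunit for interleukins of T and NK cells, differed by -0.09, -0.04, 0.87, 1.22 and 2.00 at the same times, and Prf1, the gene of the pore-forming protein perforin, by 0.09, -0.13, 0.48, 0.98 and 0.80 (limma adjusted p of the means = 0.203 and 0.220). The NK genes averaged 6.79 to 7.91 in adiponectin cultures and 6.61 to 6.92 in control cultures. Of 6 genes of plasmacytoid dendritic cells, which can also carry CXCR3, 1 rose, Bst2, itself an interferon-induced gene, by 1.26 ± 0.42 (limma adjusted p = 0.000346), and Siglech, a defining marker, differed by -0.02 ± 0.20 (0.975). The average of these 6 genes was 8.90 to 10.31 in adiponectin cultures and 8.83 to 9.98 in control cultures. The part of cell makeup in the ligands' rises was not tested. Markers of marrow leukocytes and precursors stood well above the array medians: Ptprc, the gene of the pan-leukocyte protein CD45, was at 12.27 ± 0.19 in adiponectin and 11.98 ± 0.17 in control cultures (SD, n = 5 each), and Mpo, a granule gene of neutrophil precursors, at 11.95 ± 1.28 and 11.92 ± 1.64. Of 8 such markers 0 rose and 0 fell in the limma test (2 higher at an unadjusted p under 0.05, and 2 past the threshold with an intensity trend and robust prior).

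For each gene, the 4 genes with the most similar course over the 10 arrays were found. Likeness was Pearson's r over the 10 arrays, among genes above the median level, and is a description. For Cxcl9 they were Gpr31b (r = 0.977), Parp12 (0.975), Ifi35 (0.975) and Ogfr (0.973), and for Cxcl10 Cmpk2 (0.991), N4bp1 (0.988), Slc25a22 (0.983) and Acod1 (0.975). Cmpk2, a mitochondrial nucleotide kinase gene, shared the early peak of Cxcl10, with differences of 3.11 at 4 h, 2.54 at 10 h, 2.32 at 24 h, 1.53 at 72 h and 2.17 at 120 h. Gpr31b peaked at 24 h like Cxcl9, with a difference of 2.10, against 0.89 to 1.43 at the other times. Parp12 was also largest at 24 h (1.52), while Ifi35 and Ogfr were largest at 10 h (1.42 and 0.92). For Cxcl11 they were Il27, a cytokine subunit gene (0.951), Sod2 (0.912), Nrsn2 (0.912) and N4bp1 (0.911). Il27 differed by 0.53 at 4 h and 0.53 at 24 h and by -0.07 at 120 h, the time at which Cxcl11 was also below control. At 120 h Nrsn2 was below control as well (-0.14), while Sod2 and N4bp1 were above it (0.20 and 0.38). For Cxcr3 they were Anxa9 (0.934), Zfp623 (0.926), Nckap1 (0.907) and Nt5c3b (0.905), whose mean differences lay between -0.02 and 0.02.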

How the data were processed

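RNA from marrow cultures was labelled through the Affymetrix whole-transcript cDNA kit and hybridised to 1 array per culture, per the labels' protocols. The authors deposited 1 log2 value per probe set and array, and the submitters' processing notes name RMA, Partek and the Affymetrix Expression Console. The sources used here give no version, order of steps or genome build. RMA includes quantile normalization, which lessens shifts common to most genes, but the medians of the arrays still differed (8.27 to 8.48 over named genes).

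The platform annotation gave 1 symbol to 21789 of 35556 probe sets, several to 1621 and none to 12146. Probe sets with 1 symbol were reduced to the one with the highest mean per gene, which left 19938 genes, with no filter on dim ones. Every test was fitted to all of these in limma 3.58.1 (R 4.3.3; lmFit, eBayes, two-sided, Benjamini-Hochberg). For the adiponectin effect, treatment was fitted with the time point as a block, which compares the cultures of each time with each other, as the labels pair them. Across genes, the differences of 2 times correlated at 0.11 to 0.64. Log2 hours were centred in the other models: the treatment by log2 hours term was added for the change with time, and log2 hours stood beside treatment for time in culture. Ligands were compared by an exact sign-flip test over the 5 pairs. Genes were named by rule: members past the threshold in each list, otherwise those with the largest mean differences, and the 4 genes most like each member. A few others are named because the text turns on them (interferon and receptor genes, Irf3, Irf5, Irf8, Rela, Ackr3, Siglech, Cd3d, Gzmb, Il2rb, Prf1, Ptprc, Mpo, Csf1r, Adgre1, Mertk, Itgax, H2-Aa, Cd74, Col1a1, Cdh5, Art3, Sdad1 and Nup54), chosen after their values were seen. Some listed genes are not reported here. The members, lists and tests were chosen with earlier results of these data known. Symbols and coordinates come from RefSeq (GRCm38.p6), which changed 0 symbols, and the tests were checked on simulated data. Precision is limited by the number of arrays.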

Additional observations from a re-analysis of the deposited data

How the results depend on the processing

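The rises of Cxcl9 and Cxcl10 kept their direction under each alternative run. With the same mean of 2.74, Cxcl10 lost its call without the replicate block, that is without pairing by time (adjusted p = 0.0687), and with an intensity trend and robust prior (adjusted p = 0.0556). Cxcl9 (2.79) and Cxcl10 (2.74) lost theirs in an ordinary test without moderation (adjusted p = 0.146 and 0.202). The exact sign-flip permutation test over the 5 pairs gave 0.0625 for each, the smallest p it allows, and says nothing about stability. With 1 pair left out, Cxcl9 stayed between 2.47 and 2.96 and Cxcl10 between 2.35 and 2.99, past the threshold each time, and Cxcl11 ranged over 0.39 to 0.65 and Cxcr3 over -0.0657 to 0.0945, below 0 without the 10, 72 or 120 h pair. Centring arrays on their medians gave Cxcr3 -0.00675. Genes called higher and lower, 408 and 74, numbered 146 and 4 without the block and 9 and 0 without moderation. Those called lower numbered 30 when log2 hours replaced the block, 113 after repeated quantile normalization, 117 with the intensity trend, and 21 (without the 24 h pair) to 62 with a pair left out. The other genes called in a list were also refitted without the block. Of these, Stat2, Irf1, Irf7, Irf9, Usp18, Klrk1, Cd209a and Kdr stayed past the threshold. Ikbke, Jak2, Socs1, Cxcl2, Cxcr6, Ccr1, Bst2 and Fcgr1 lost their calls. Cxcl11 has no value among genes above the median level, since it lies below it.

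For the change with time, Cxcl9 reversed to -0.37 when late was set against early times, and ranged over -0.0739 (without the 4 h pair) to 0.204, with a range of -0.58 (without the 120 h pair) to -0.21 (without the 4 h pair) for Cxcl10 and of -0.19 to -0.10 (without the 120 h pair) for Cxcl11. Called genes numbered 2 higher and 3 lower with the intensity trend, and 0 to 1 higher with a pair left out. The Cxcl10 slope over time in culture (-0.38) lost its call when arrays of a time were averaged and with the intensity trend (adjusted p = 0.0796 and 0.0858), and was -0.18 in control arrays. It ranged over -0.48 to -0.23 with a pair left out. The Cxcl11 slope was 0.0269 in control arrays. Counts of 1956 higher and 1728 lower became 985 and 974 with averaged arrays, 513 and 490 in control arrays, 857 and 799 in adiponectin arrays, and 674 to 2127 and 650 to 1871 with a pair left out, lowest without the 120 h pair. Cxcl9 minus Cxcl10 ranged over -0.34 (without the 24 h pair) to 0.58 (without the 4 h pair), and was also below 0 without the 72 h or 120 h pair. The cause of these changes was not tested, apart from the fewer arrays or the fewer degrees of freedom that an alternative leaves by construction. Of 231 alternative values, 185 kept direction and side of the threshold or, for counts, moved by less than 1.5 times, while 24 counts moved further, 11 values lost a call, 10 changed sign and 1 gained a call.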

Other observations

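Cell types that can make the ligands were also read through marker lists. Of 6 macrophage genes 1 rose, Fcgr1, the high-affinity receptor of immunoglobulin G and itself induced by interferon, by 0.98 ± 0.48 (SD, n = 5 pairs; limma adjusted p = 0.00363), and Csf1r, which defines the lineage, differed by -0.05 ± 0.10 (0.922). The macrophage genes averaged 12.82 to 13.09 in adiponectin cultures and 12.67 to 12.79 in control cultures. Of 6 genes of conventional dendritic cells 0 rose and 1 fell, Cd209a, a lectin of monocyte-derived dendritic cells, by 2.36 ± 0.54 (limma adjusted p = 1.36e-05), with a median of -0.42. At an unadjusted limma p under 0.05, 4 of the 6 were lower and 0 higher. Beside Cd209a these were Itgax at -0.65 ± 0.73, H2-Aa at -0.55 ± 0.43 and Cd74 at -0.29 ± 0.35 (limma adjusted p = 0.217, 0.0703 and 0.372). Of 8 endothelial and stromal genes 1 rose, Kdr, the endothelial receptor of vascular endothelial growth factor, by 0.66 ± 0.35 (limma adjusted p = 0.0117), a call lost without the 24 h pair (0.0750). Col1a1, a collagen gene of stroma, differed by 0.20 ± 0.23 and Cdh5, an endothelial cadherin gene, by -0.21 ± 0.57 (limma adjusted p = 0.521 and 0.804).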
